A study of Mus musculus with 6 samples.

Results

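The 4 fibroblast growth factor (FGF) receptor genes Fgfr1, Fgfr2, Fgfr3 and Fgfr4, the 3 Sprouty genes Spry1, Spry2 and Spry4, the phosphatase gene Dusp6 and the ETS factor genes Etv4 and Etv5 were followed in lung epithelial cells with reduced Nkx2-1. They were taken by name, as the transcript clusters (the array's unit for a gene) whose only gene symbol was one of these 10, out of 19938 genes with a symbol of their own. Etv5 was the 1 gene with a further transcript cluster, and the one with the higher mean was used. RNA came from 3 lines of MLE15 cells (MLE-15 in the labels) transduced with a mix of 3 shRNAs against Nkx2-1 in the pLKO.1 lentivirus, and from 3 lines transduced with the pLKO.1 empty vector as non-silencing control. Each line was transduced independently, all were selected in puromycin, and the source labels carry 48 h without naming the starting point. MLE15 is a mouse line from lung adenocarcinomas of transgenic animals in which the surfactant protein C promoter of humans drives the SV40 large T antigen, so both groups carry that oncogene.

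FGFs bind receptor tyrosine kinases at the cell surface together with heparan sulfate, and the activated receptors signal through RAS and the ERK kinases. ERK in turn switches on Sprouty proteins, which damp the relay from receptor to RAS, DUSP6, which removes the phosphates from ERK itself, and the ETS factors ETV4 and ETV5, which carry the signal to genes. In the embryonic lung, FGF10 from the mesenchyme acts on FGFR2 in the epithelium to drive branching, and NKX2-1 is the homeodomain factor that marks this epithelium.

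Nkx2-1 itself was at 7.91, 7.98 and 7.83 in the Nkx2-1-shRNA lines and at 8.61, 8.61 and 8.59 in the empty vector lines, on the log2 scale of Robust Multi-Array Analysis (RMA) used for all levels here. The shRNA lines thus held 61.8% of the empty vector level (log2 fold change -0.69, SE 0.08, limma adjusted p = 0.00155). Of 10 fibroblast markers 0 were called by limma (0 also at an unadjusted p under 0.05 and by the methods' t-test), with 5 of them at or below the background limit of 4.35 in each group and the highest at 5.90 in shRNA lines and 5.81 in empty vector lines. The same counts of 0 held for 6 leukocyte markers, with 4 of them at or below the limit in each group. The highest of the 6, Cd68, was at 6.67 in shRNA lines and 6.81 in empty vector lines. Of 6 endothelial markers Tek was lower (means of 3.77 in shRNA lines and 5.77 in empty vector lines) and Vwf higher (log2 fold change 0.41). Tek also passed by the methods' t-test (adjusted p = 0.0115) and Vwf did not (0.0579). Of 8 epithelial markers 3 were higher, and of 6 alveolar type II markers 1 was higher and 3 were lower. The methods' t-test called 3 epithelial markers higher, and 0 alveolar type II markers higher and 3 lower. Arrays correlated at 0.991 to 0.994 within a group and at 0.979 to 0.983 between groups. The median value of an array was 5.10 to 5.14 in shRNA lines and 5.18 to 5.21 in empty vector lines.

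All 10 genes were above the background limit, the 95th percentile of 1248 transcript clusters of sensory receptors, in both groups. In Nkx2-1-shRNA lines 2 of them were higher (Fgfr3 and Spry4), 3 were lower (Spry1, Spry2 and Etv4) and 5 did not pass the test (Fgfr1, Fgfr2, Fgfr4, Dusp6 and Etv5), by limma at an adjusted p under 0.05 over 35557 transcript clusters. In the same comparison 7.61% of all transcript clusters were higher and 9.24% lower, and among the 13568 genes above background in at least 1 group 15.3% were higher and 13.9% lower. The 3 shRNA values lay wholly to one side of the 3 empty vector values for 6 of the 10 genes, against 52.5% of the genes above background. The median log2 fold change of the 10 genes was -0.09, beside -0.00398 for genes above background, so the set as a whole did not lean far either way and its members split.

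**Figure D1:**
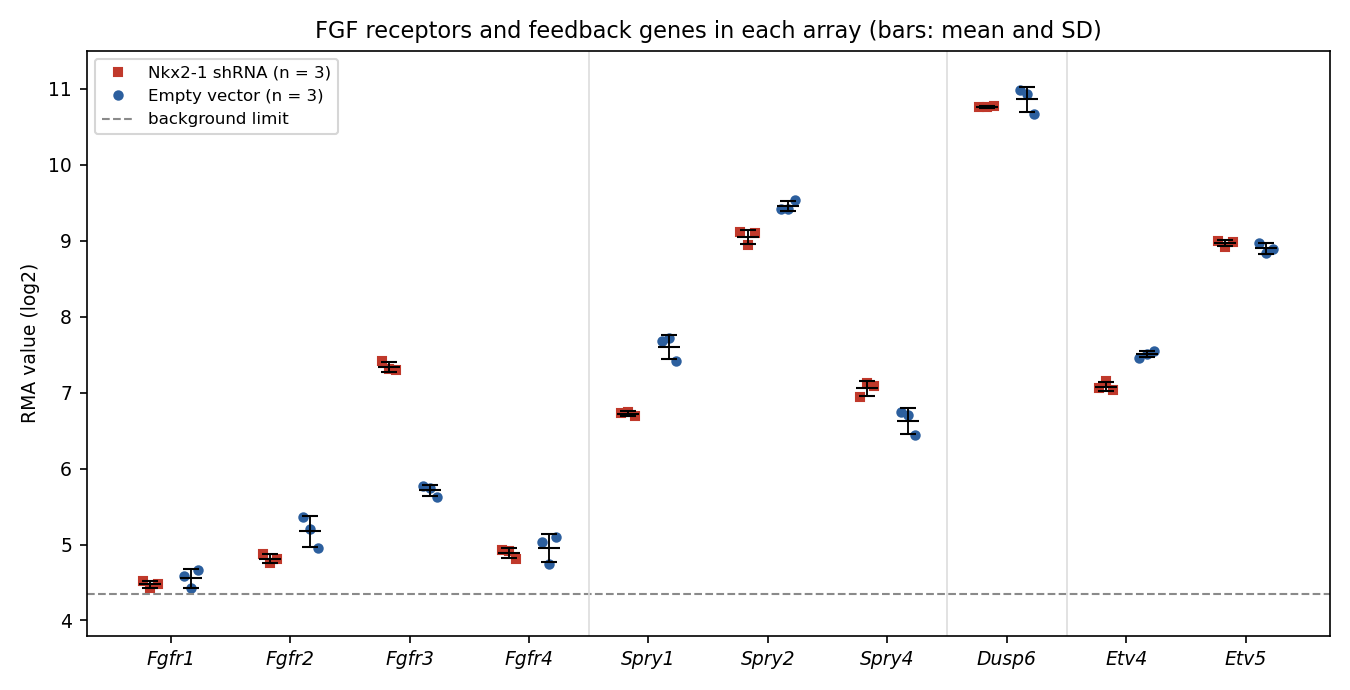
RMA values (log2, vertical axis) of the 10 genes in each of the 3 Nkx2-1-shRNA arrays (red squares) and the 3 empty vector arrays (blue circles), with bars for the mean and SD and a dashed line at the background limit of 4.35. Fgfr3 stands 1.62 higher in the shRNA arrays, Spry1 stands 0.88 lower, and the groups of Fgfr1, Fgfr4, Dusp6 and Etv5 overlap; heights are not comparable between genes, since each has its own probes.

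Among the receptors, the change lay in Fgfr3, which encodes a receptor that restrains bone growth and that works with FGFR4 when alveoli form in the mouse lung. Fgfr3 was at 7.42, 7.31 and 7.29 in Nkx2-1-shRNA lines and at 5.77, 5.74 and 5.63 in empty vector lines. Every shRNA line was above every empty vector line, and the gap was far wider than the spread within either group (SD 0.067 in shRNA lines and 0.076 in empty vector lines, n = 3 each). The log2 fold change was 1.62 (SE 0.08, 95% confidence interval 1.43 to 1.82, limma adjusted p = 9.49e-05), a level 3.08 times that of the empty vector lines. Fgfr3 was the 168th largest rise among the genes above background. By limma it was also the 1 gene of the 10 at the stricter threshold that the study used, which asks for an adjusted p under 0.0005 and a change beyond 0.6 on the log2 scale. By the methods' t-test 0 of the 10 genes reached that threshold (adjusted p of 0.00389 for Fgfr3).

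Fgfr3 lies on mouse chromosome 5. The 20 genes above background that sit nearest to it in gene order, 10 on each side, had a median log2 fold change of 0.27. Of these 20, 8 were higher and 1 was lower, beside 15.3% higher and 13.9% lower among all genes above background. None of these neighbors reached the change of Fgfr3 itself, the highest being 0.78. The genes directly beside it, Tacc3 (-0.13) and Letm1 (0.25), did not pass the test. The 250 bases before the first listed start site of Fgfr3 (RefSeq, GRCm38.p6, chr5:33721474-33721723, plus strand) are shown because it is the gene with the clearest change, with capitals for CAAG, the core of the NKX2-1 site, and for GGAA, the core of the ETS site, on either strand (CTTG and TTCC on the other).
Fgfr3: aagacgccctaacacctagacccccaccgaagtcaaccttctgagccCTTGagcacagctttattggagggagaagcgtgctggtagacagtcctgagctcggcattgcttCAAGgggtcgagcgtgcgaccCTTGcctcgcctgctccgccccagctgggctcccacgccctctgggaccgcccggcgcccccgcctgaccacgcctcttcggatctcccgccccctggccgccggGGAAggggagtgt
This window held 3 CAAG matches and 1 GGAA match. The window of the second listed start site (chr5:33722056-33722305) held 1 CAAG and 5 GGAA. Both motifs are short and may share a letter, and 86.6% of 32851 such windows held CAAG (median 2 matches) and 93.4% held GGAA (median 3 matches). A match is thus the usual state of a promoter, and binding was not measured here.

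Fgfr2, which encodes the epithelial receptor for FGF7 and FGF10 in its IIIb form, was at 4.87, 4.76 and 4.81 in Nkx2-1-shRNA lines and at 5.36, 5.20 and 4.96 in empty vector lines. The groups did not overlap, but the empty vector lines were spread (SD 0.20, against 0.057 in shRNA lines). The log2 fold change of -0.36 (SE 0.11, 95% confidence interval -0.63 to -0.09) corresponded to 78.0% of the empty vector level and missed the threshold, with a limma adjusted p of 0.0805. It passed in 5 of 16 alternative analyses, with an adjusted p of 0.0273 without empty vector replicate 3 and of 0.278 in a test that let the groups differ in variance. The array gives 1 value for all forms of Fgfr2, so the IIIb and IIIc forms were not told apart.

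Fgfr1 and Fgfr4, the remaining receptor kinases, showed no detectable difference. Fgfr1 was at 4.52, 4.43 and 4.48 in Nkx2-1-shRNA lines and at 4.58, 4.42 and 4.66 in empty vector lines, barely above the background limit of 4.35. Fgfr4 was at 4.93, 4.92 and 4.81 in shRNA lines and at 5.03, 4.75 and 5.10 in empty vector lines. For both genes the groups overlapped. The log2 fold change was -0.08 for Fgfr1 (95% confidence interval -0.29 to 0.13, limma adjusted p = 0.622) and -0.07 for Fgfr4 (-0.34 to 0.19, limma adjusted p = 0.732), so for Fgfr4 a fall by 0.34 on the log2 scale remains within the interval.

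The Sprouty genes did not move as one. Spry1, Spry2 and Spry4 encode related inhibitors that are induced by growth factor signaling and block it upstream of ERK, and in the embryonic lung Sprouty genes limit branching. Spry1 and Spry2 were lower in Nkx2-1-shRNA lines, and Spry4 was higher.

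Spry1 was at 6.73, 6.75 and 6.69 in Nkx2-1-shRNA lines and at 7.67, 7.71 and 7.42 in empty vector lines. The shRNA lines lay close together (SD 0.029) and below every empty vector line (SD 0.16). Spry1 fell to 54.3% of the empty vector level, a log2 fold change of -0.88 (SE 0.10, 95% confidence interval -1.11 to -0.65, limma adjusted p = 0.00171), and was the 350th largest fall among genes above background. It passed in 16 of 17 alternative analyses, the exception being the test with unequal variances (adjusted p = 0.0919).

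Spry2 was at 9.11, 8.94 and 9.10 in Nkx2-1-shRNA lines and at 9.42, 9.41 and 9.53 in empty vector lines. All shRNA lines were below all empty vector lines. The change was smaller than that of Spry1, to 75.5% of the empty vector level (log2 fold change -0.41, SE 0.09, 95% confidence interval -0.61 to -0.20, limma adjusted p = 0.0205). The call was lost without any 1 of the 3 shRNA lines (adjusted p 0.0553 without replicate 1, 0.0673 without replicate 2 and 0.0533 without replicate 3) and without empty vector replicate 3 (0.0534), with the direction kept each time.

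Spry4 was at 6.95, 7.12 and 7.09 in Nkx2-1-shRNA lines and at 6.75, 6.70 and 6.44 in empty vector lines. The groups were apart, by a small margin between the lowest shRNA line and the highest empty vector line. Spry4 was 1.34 times the empty vector level (log2 fold change 0.42, SE 0.11, 95% confidence interval 0.16 to 0.68, limma adjusted p = 0.0415). Of the 5 calls this was the one that most often failed, passing in 8 of 17 alternative analyses. Leaving out any 1 of the 6 arrays gave an adjusted p of 0.0533 to 0.124, so its direction held and its call did not.

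The windows before the start sites of Spry1 (chr3:37639697-37639946, plus strand) and Spry2 (chr14:105896820-105897069, minus strand; both RefSeq, GRCm38.p6) are shown, since these Sprouty genes fell together, with the same letters in capitals.
Spry1: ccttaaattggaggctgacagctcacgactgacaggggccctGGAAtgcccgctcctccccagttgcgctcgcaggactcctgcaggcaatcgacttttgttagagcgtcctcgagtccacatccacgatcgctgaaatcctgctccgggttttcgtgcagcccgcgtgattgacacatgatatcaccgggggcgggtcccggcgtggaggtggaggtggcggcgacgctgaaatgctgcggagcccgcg
Spry2: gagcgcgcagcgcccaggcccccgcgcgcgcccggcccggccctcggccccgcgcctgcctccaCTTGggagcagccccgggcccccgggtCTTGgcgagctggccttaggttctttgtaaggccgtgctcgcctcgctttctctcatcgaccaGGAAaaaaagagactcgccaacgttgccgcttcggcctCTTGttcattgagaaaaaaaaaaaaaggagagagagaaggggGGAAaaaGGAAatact
Spry1 held no CAAG and 1 GGAA, and Spry2 held 3 CAAG and 3 GGAA. The windows of the pair thus differed in these letters, and no link between the letters and the falls was tested. Entries were found for 7 of the 10 genes, and for 3 of the 5 called ones.

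Spry1 lies on chromosome 3 near Fgf2, the gene of an FGF that binds several of the receptors and that was higher in Nkx2-1-shRNA lines (log2 fold change 1.30). Of its 20 nearest genes above background 7 were higher and 2 were lower, with a median of 0.11. The shares over all genes above background were 15.3% higher and 13.9% lower. The lower neighbors were those directly beside Spry1, Spata5 (-0.29, limma adjusted p = 0.0454) and Gm5148 (-0.50, limma adjusted p = 0.0201). Gm5148 was near the background limit, with means of 4.05 in shRNA lines, below it, and 4.56 in empty vector lines. The medians of the 20 neighbors were near 0 for Spry2 (-0.03, on chromosome 14), Spry4 (0.03, on chromosome 18) and Etv4 (-0.09, on chromosome 11). Single neighbors changed all the same, with 2 higher and 1 lower around Spry2. Around Spry4 5 were higher and 4 lower, and around Etv4 2 were higher and 3 lower. Beside Spry2 lay Ndfip2 (0.38, limma adjusted p = 0.0191) and Slitrk5 (-0.08). Beside Spry4 lay Ndfip1 (0.51, limma adjusted p = 0.02) and Arhgap26 (-0.46, limma adjusted p = 0.0274). Beside Etv4 lay Dhx8 (-0.18) and 4930417O22Rik (-0.11). Slitrk5, Dhx8 and 4930417O22Rik did not pass the test.

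**Figure D2:**
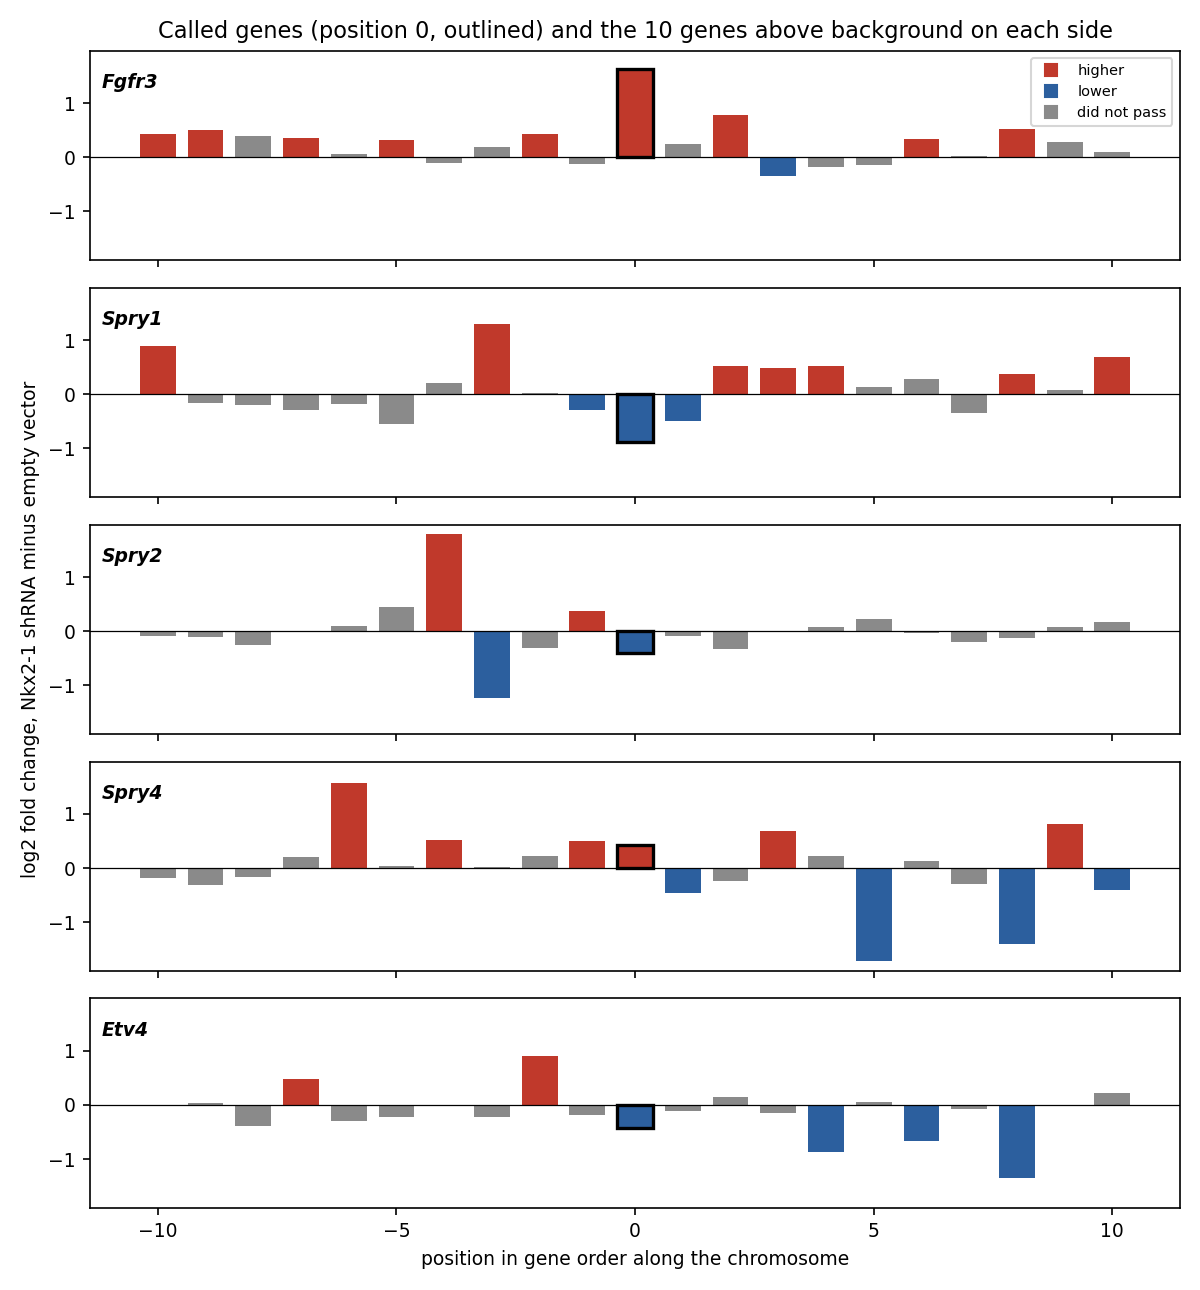
Log2 fold change (Nkx2-1 shRNA minus empty vector, vertical axis) of the 5 called genes (outlined, position 0) and of the 10 genes above background on each side in gene order (horizontal axis, number of genes away), colored by whether they passed the test. Fgfr3 at 1.62 exceeds all 20 of its neighbors. The fall of Spry1 is flanked by 2 smaller falls, that of Gm5148 near the background limit, and, at position -3, by the rise of Fgf2.

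Dusp6, whose product removes the activating phosphates from ERK and is often read as a gauge of ERK output, did not pass the test. It was at 10.76, 10.76 and 10.78 in Nkx2-1-shRNA lines and at 10.98, 10.93 and 10.67 in empty vector lines. The shRNA lines were tightly grouped (SD 0.012) and lay inside the range of the empty vector lines (SD 0.17). The log2 fold change was -0.10 (95% confidence interval -0.34 to 0.14, limma adjusted p = 0.589).

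Of the ETS factors, Etv4 was lower and Etv5 was not called. Etv4, which in the distal lung epithelium responds to FGF signaling together with Etv5, was at 7.06, 7.15 and 7.04 in Nkx2-1-shRNA lines and at 7.46, 7.51 and 7.54 in empty vector lines. The groups were well apart, with an SD of 0.059 in shRNA lines and 0.044 in empty vector lines. Etv4 was at 74.4% of the empty vector level (log2 fold change -0.43, SE 0.08, 95% confidence interval -0.61 to -0.25, limma adjusted p = 0.0107). It passed in 16 of 17 alternative analyses, with an adjusted p of 0.051 without Nkx2-1-shRNA replicate 1.

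Etv5 was at 8.996, 8.92 and 8.98 in Nkx2-1-shRNA lines and at 8.97, 8.83 and 8.89 in empty vector lines, and the groups overlapped. The log2 fold change was 0.07 (95% confidence interval -0.12 to 0.25, limma adjusted p = 0.642). The transcript cluster of Etv5 that was not used gave 8.22, 8.15 and 8.33 in shRNA lines and 8.25, 8.07 and 8.17 in empty vector lines. It likewise overlapped, with a log2 fold change of 0.07 and a limma adjusted p of 0.689.

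**Figure D3:**
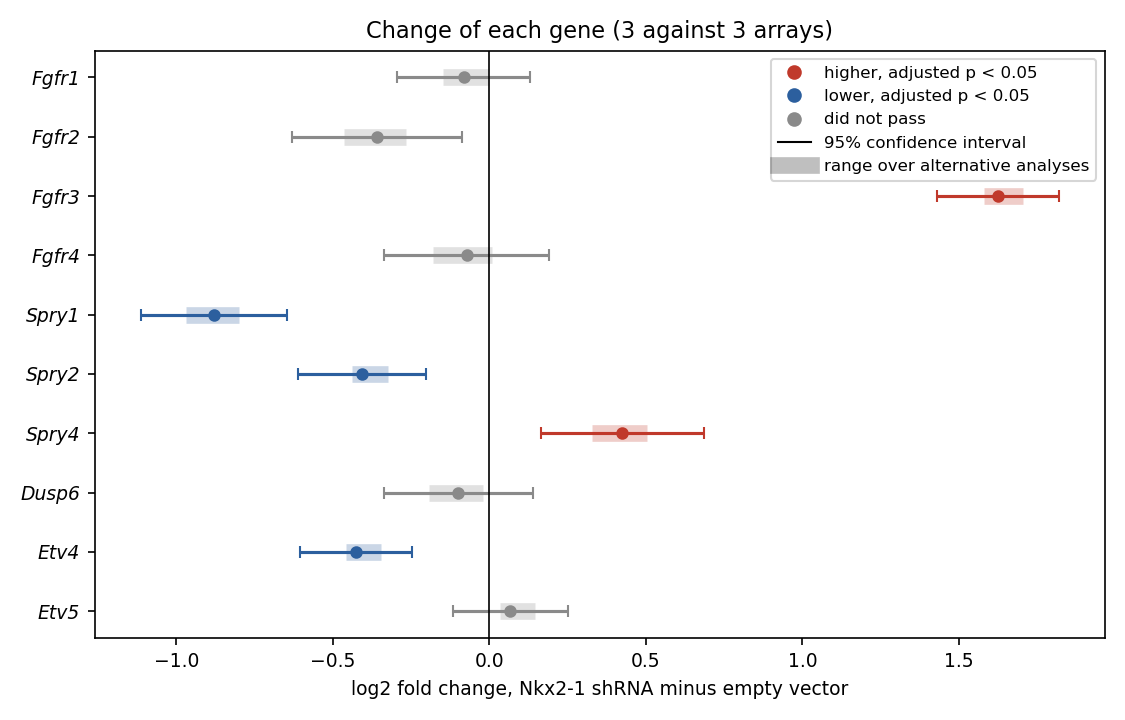
Log2 fold change (Nkx2-1 shRNA minus empty vector, horizontal axis) of the 10 genes, 1 row each, with the 95% confidence interval as a line and the range over the alternative analyses as a pale band. The interval of Fgfr3 runs from 1.43 to 1.82, those of Spry1, Spry2 and Etv4 lie below 0, and that of Spry4 begins at 0.16. The interval of Fgfr2 (-0.63 to -0.09) also lies below 0, although Fgfr2 missed the adjusted threshold. Those of Fgfr1, Fgfr4, Dusp6 and Etv5 cross 0.

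To compare relatives directly, the difference between each pair of genes of a family was taken within each array, which gives 10 pairs and was chosen after the values were seen. Etv4 minus Etv5 was -1.94, -1.78 and -1.94 in Nkx2-1-shRNA lines and -1.52, -1.32 and -1.35 in empty vector lines, so the balance between them moved by -0.49 and the groups did not overlap. Spry1 minus Spry4 was -0.22, -0.38 and -0.40 in shRNA lines and 0.92, 1.01 and 0.99 in empty vector lines, a shift of -1.30. That was the largest shift among the 3 Sprouty pairs, with -0.83 for Spry2 minus Spry4 and -0.47 for Spry1 minus Spry2.

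Fgfr3 shifted against each of the other receptors, by 1.70 for Fgfr3 minus Fgfr4, by -1.71 for Fgfr1 minus Fgfr3 and by -1.98 for Fgfr2 minus Fgfr3. In 7 of the 10 pairs the groups did not overlap, and each of these had p = 0.1 in the two-sided exact permutation test, the smallest that 3 against 3 arrays can give (Benjamini-Hochberg adjusted 0.143 over the 10 pairs). The other 3 pairs were those among Fgfr1, Fgfr2 and Fgfr4, with exact permutation p of 0.3 to 0.9. No pair could therefore pass a threshold of 0.05. The share of separated groups over other gene pairs was not computed, while 52.5% of single genes above background had groups apart. The pairs also reuse the same genes, so their count restates the changes of single genes given above.

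The other genes of the pathway were counted from lists of the ligands, their partners at the cell surface, the relay and its outputs, in the same fit and beside the same shares of calls. Of 22 FGF ligands 2 were higher, 1 was lower and 19 did not pass, and 6 were below the background limit in both groups. Fgf21, a hormone-like FGF, was at 7.19, 7.32 and 7.03 in Nkx2-1-shRNA lines and at 5.62, 5.79 and 5.13 in empty vector lines. Fgf2 was at 7.10, 6.89 and 7.13 in shRNA lines and at 5.99, 5.68 and 5.55 in empty vector lines. In both genes the groups were more than a log2 unit apart at their means, with a log2 fold change of 1.67 for Fgf21 (limma adjusted p = 0.00139) and 1.30 for Fgf2 (limma adjusted p = 0.00126).

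Fgf13, which encodes an intracellular FGF that does not act through the receptors, was lower (-0.95, limma adjusted p = 0.0111). By the methods' t-test its adjusted p was 0.0682, so that 0 of the 22 ligands were lower by that test and 2 were higher. Fgf1, Fgf9 and Fgf18, ligands followed by name, did not pass. Their log2 fold changes were -0.23 for Fgf1, 0.10 for Fgf9 and -0.18 for Fgf18, and the limma adjusted p ran from 0.109 for Fgf1 to 0.616 for Fgf9. Fgf7 and Fgf10, which the mesenchyme makes for the epithelium, were below the background limit in both groups (Fgf7 means of 3.61 in shRNA lines and 3.91 in empty vector lines, and Fgf10 means of 3.18 in shRNA lines and 3.41 in empty vector lines).

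Of 17 co-receptors and FGF-binding proteins 5 were higher, 0 were lower by limma (2 at an unadjusted p under 0.05) and 12 did not pass. The higher ones by limma were Sdc1, a heparan sulfate proteoglycan of epithelia (0.95), Gpc1, another such proteoglycan (0.54), and 3 others. These were Flrt3 (0.71) and Flrt1 (0.56), membrane proteins that can bind FGF receptors, and Fgfbp1, which releases FGFs from the matrix (0.62). The limma adjusted p of the 5 ran from 0.000918 for Sdc1 to 0.0156 for Flrt1. The methods' t-test called 3 higher and 0 lower. Its calls were Sdc1, Flrt3 and Fgfrl1 (0.26, limma adjusted p = 0.0613). Gpc1, Flrt1 and Fgfbp1 did not pass it (adjusted p of 0.0505, 0.0598 and 0.0634). Among 17 measured genes of heparan sulfate synthesis and editing 3 were higher and 1 was lower. Hpse, the heparanase that cuts these chains (1.40), Glce, which epimerizes their uronic acids (1.19), and Hs3st1, a sulfotransferase (0.43), were the higher ones. Ext2, of the polymerase that builds the chains, was the lower one (-0.34). The methods' t-test called 2 of these genes higher and 1 lower, and Hs3st1 did not pass it (adjusted p = 0.0647).

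Between receptor and ERK, 20 adaptor and relay genes were measured. By limma 3 were higher, 2 were lower and 15 did not pass. Map2k1, the kinase MEK1 that activates ERK (0.45), Sos2, an exchange factor for RAS (0.45), and the scaffold Ksr1 (0.29) were higher. Plcg1, the phospholipase that binds activated FGF receptors (-0.61), and the docking protein Gab1 (-0.34) were lower. The methods' t-test called 2 higher, Ksr1 and Ptpn11 (0.20, limma adjusted p = 0.107), and 1 lower, Plcg1. Map2k1, Sos2 and Gab1 did not pass it (adjusted p of 0.0845, 0.116 and 0.0535). The medians of these lists were close to 0, at 0.12 for co-receptors, 0.04 for heparan sulfate genes and 0.06 for the relay.

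Among 28 further ERK feedback and ETS output genes 11 were higher and 4 were lower, with a median log2 fold change of 0.21. Dusp16 (1.16) and Dusp7 (0.83), phosphatases of MAP kinases, the immediate early genes Fos (1.11) and Ier3 (1.05), and Myc (0.95) were higher. Of the other Dusp genes in the list, Dusp4 was lower (-0.66, limma adjusted p = 0.00527) and Dusp9 higher (0.51, limma adjusted p = 0.0146). The rest of the Dusp genes in the list did not pass. Etv1, the third member of the subfamily of Etv4 and Etv5, was at 5.79, 5.83 and 5.99 in Nkx2-1-shRNA lines and at 7.08, 6.94 and 6.67 in empty vector lines. Its groups were apart, and it fell to 49.1% of the empty vector level (limma adjusted p = 0.00236).

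Il17rd, also called Sef, which holds back FGF signaling at the receptor and at ERK, was lower (-0.78, limma adjusted p = 0.00253), as was Spred1, a relative of the Sproutys (-0.69, limma adjusted p = 0.00158). Spred2, at 0.17, did not pass (limma adjusted p = 0.345). Falls thus stood beside rises in this list, as they did among the Sproutys.

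**Figure D4:**
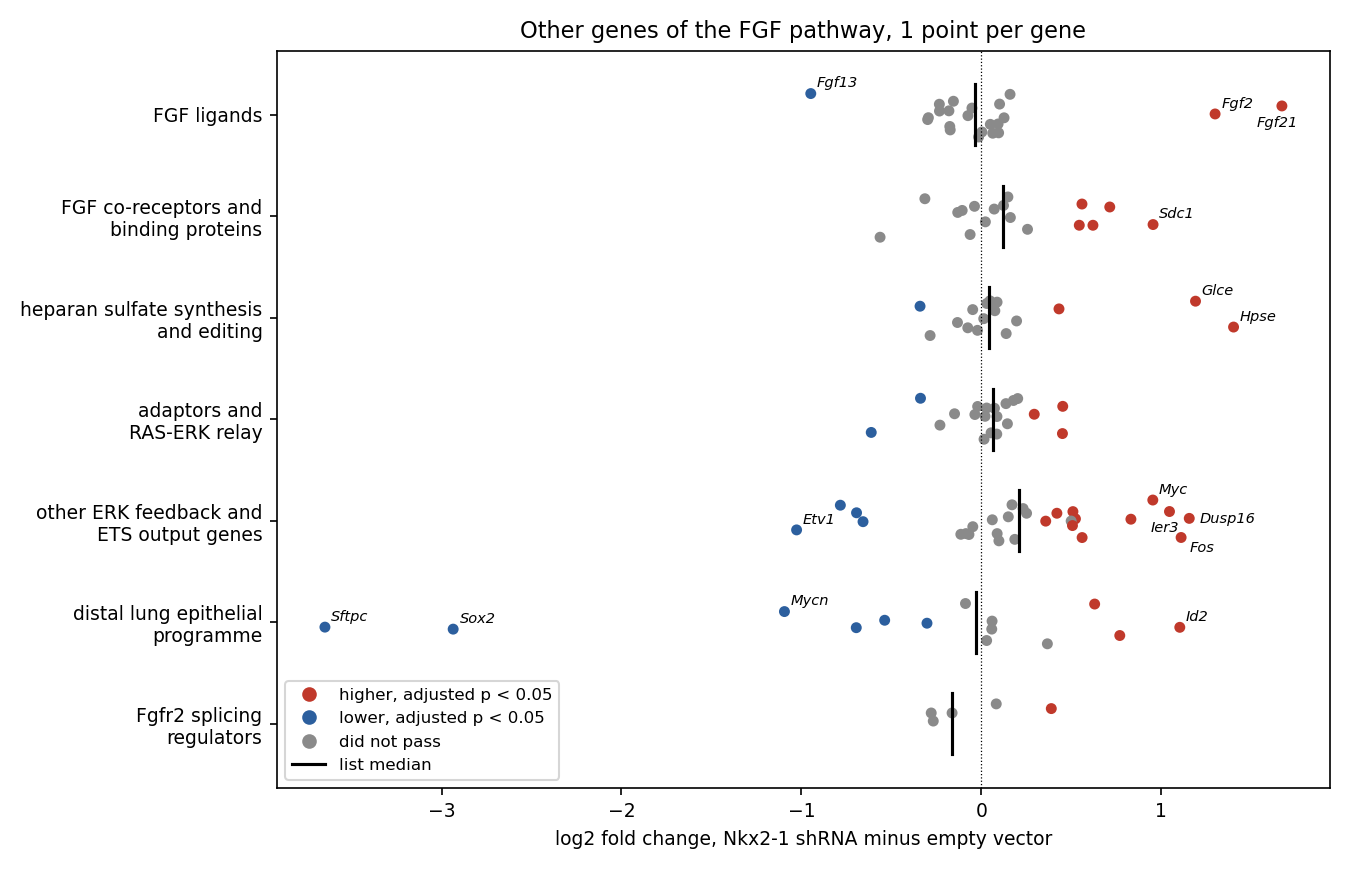
Log2 fold change (Nkx2-1 shRNA minus empty vector, horizontal axis) of the genes of 7 lists around the FGF pathway, 1 point per gene and 1 row per list, with red for higher, blue for lower, gray for genes that did not pass and a black bar for the list's median. The widest spread is in the distal lung programme, where Sftpc lies at -3.65, and the highest median, 0.21, is that of the other ERK feedback and ETS output genes.

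Of 14 genes of the distal lung epithelial programme that is linked to FGF signaling in the embryo 3 were higher, 6 were lower and 5 did not pass. The list holds Nkx2-1 itself, whose fall the shRNAs were designed to cause, as 1 of the 6. Sox2, of the proximal airway, is another, so the 6 are not all genes of the distal epithelium. Sftpc, the surfactant protein C gene, was at 4.10, 4.29 and 3.85 in Nkx2-1-shRNA lines and at 7.22, 7.92 and 8.05 in empty vector lines (log2 fold change -3.65). The mean in shRNA lines lay below the background limit, so its level there cannot be told from background. Sox2, a factor of the proximal airway (log2 fold change -2.94), and Mycn, which sustains growth of the distal tips (-1.09), were lower, while the distal tip genes Id2 (2.15 times the empty vector level) and Sox9 (1.71 times) were higher.

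Of 5 splicing regulators of Fgfr2, limma called 1, Esrp1, which was higher at 0.39 (adjusted p = 0.0191). Ptbp1, named after its values were seen, was at -0.27 with groups apart, and it missed the threshold by limma (adjusted p = 0.051) and passed by the methods' t-test (adjusted p = 0.0244). Esrp2, which with Esrp1 favors the epithelial IIIb form, was at -0.16 (limma adjusted p = 0.248), although its groups did not overlap.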

How the data were processed

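Messenger RNA of 6 MLE15 lines, 3 per group, was profiled on the Mouse Gene 1.0 ST array of Affymetrix. Summary values were made by the authors with RMA in Affymetrix Expression Console 1.1, and the deposited log2 values of 35557 transcript clusters were used as they stand. RMA includes quantile normalization, but the deposited columns still had medians of 5.10 to 5.14 in shRNA arrays and 5.18 to 5.21 in empty vector arrays, so quantile normalization was repeated as an alternative. The number of arrays limits the precision.

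Groups came from the sample labels. The contrast was fitted by lmFit and eBayes of limma 3.58.1 under R 4.3.3 (4 residual and 2.86 prior degrees of freedom), with Benjamini-Hochberg adjustment over all transcript clusters. The fit was checked on simulated data. Symbols came from the array annotation, where 21789 transcript clusters had 1 symbol, 1621 had several and 12147 had none or were not listed. Gene order and promoters came from RefSeq tables (GRCm38), which placed 13526 of the 13568 genes above background.

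The 10 genes and the lists were chosen with earlier results of these data known. Named are the 10 genes, Nkx2-1 and, of each list of pathway genes, the called genes with the largest change (up to 6). Of the marker lists only some genes are named. A few ligands and regulators fixed by name, and the genes beside a called one, are named too. Fgfrl1, Ptpn11, Dusp4 and Dusp9 were named besides, after their values were seen. A further 8 list genes were not analysed here. Alternatives were other tests, priors, weights, normalizations, filters, the study's threshold, a replicate block and leaving out each array. The microRNA arrays were not analysed here.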

Additional observations from a re-analysis of the deposited data

How the results depend on the processing

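Each of the 5 calls kept its direction under every alternative run, and Fgfr3 passed in all 17 of them (adjusted p 3.96e-07 to 0.0133). Spry4 was lost, leaving 1 gene higher, under the methods' t-test, the t-test for unequal variances, the replicate block and each leave-one-out fit. The number of lower genes was 1 under the t-test for unequal variances and 1 to 3 over the leave-one-out fits, and at the study's threshold 1 gene was higher and 0 were lower. At an unadjusted p under 0.05, 2 genes were higher and 4 lower by limma, the methods' t-test and the replicate block, and 2 and 3 by the t-test for unequal variances. Fgfr2 was called in 5 of 16 alternatives, and the sign of Fgfr4, not called in any, held in 14 of 16. The cause of these changes was not tested.

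Over all transcript clusters, 2705 were higher and 3284 lower. The methods' t-test gave 1983 lower, the t-test for unequal variances 832 higher and 760 lower, the study's threshold 286 higher and 162 lower, and the leave-one-out fits 1690 to 2225 higher and 1815 to 2750 lower. Centring each array on its median gave 3484 higher and 2376 lower, so that 59.5% of the calls were higher, against 45.2% as reported, and quantile normalization again gave 2982 higher and 2991 lower, while 2 of the 10 genes were higher and 3 lower under both.

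Same-numbered arrays did not deviate together (correlations of 0.089, 0.218 and -0.055), so the numbers were not taken to pair the samples. With the replicate block, 1 of the 10 genes was higher and 3 were lower, and 2269 transcript clusters were higher and 2775 lower.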
